A study of Mus musculus with 4 samples.

Results

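Of the 53883 regions of open chromatin found in any of 4 mouse skeletal muscles, 649 (1.20%) were open in the soleus (Sol) and the diaphragm (Dia) and in neither the extensor digitorum longus (EDL) nor the quadriceps (Quad). Open chromatin was mapped by ATAC-seq, in which the transposase Tn5 inserts sequencing adapters into accessible DNA. All muscles came from sedentary wild-type C57BL/6 male mice (C57BL/6J in the study's methods), and 1 library per muscle was analysed, each described as pooled. How many animals or replicates a list combines is not given in the sources used here. Without replicates the muscles were not tested against each other, and all differences are between these 4 libraries. A region was formed by joining peaks of the 4 lists that overlapped by at least 1 bp, and a muscle was counted as open where its list held a peak. Members were thus chosen by the authors' peak calls in these same libraries, and the presence of a peak and its score are given for them as a description. The mirror class, regions open in EDL and Quad only, held 4336 regions (8.05%), and 14497 regions (26.9%) were open in all 4 muscles.

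Skeletal muscle is built from fibers that differ in speed and metabolism. Slow fibers are rich in mitochondria and burn fatty acids and glucose oxidatively, whereas fast glycolytic fibers draw on glycogen. The soleus is a slow postural muscle and the diaphragm works with every breath, while EDL and Quad are mostly fast. Calcineurin and NFAT, the MEF2 factors, the estrogen-related receptors (ERR) and their coactivator PGC1α are known regulators of the slow oxidative program, and EYA factors, TBX15 and SOX6 of the fast program. Accessible DNA outside promoters often marks enhancers, but a peak by itself does not show activity.

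Starts of genes used by all skeletal muscle were open in most lists. Of 6 such genes (Acta1, Ckm, Mb, Des, Myod1 and Ttn), all had a peak within 1 kb of a transcript start in EDL, while Quad and Sol each had 5 and Dia 4. Of 8 genes that mark slow fibers, Tpm3 and Atp2a2 had such a peak in all 4 lists and Myl3 in Sol, while no list held one for Myh7, Tnnt1, Tnni1, Tnnc1 or Myl2. Of 10 genes that mark fast fibers, such a peak was listed for 7 by Quad, 6 by Sol, 5 by EDL and 3 by Dia. The lists also differed in length (from 21582 peaks in Dia to 40337 in Quad) and in the fixed width of their peaks, from 188 bp in Quad to 232 bp in Dia. A peak missing from a list may lie under that list's threshold or be centered beside the region. In bulk tissue, fewer open nuclei and less signal per nucleus cannot be told apart.

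The sequences of 10 members are shown, because they had high mean percentiles of the Sol and Dia scores among the 5 strongest members without an EDL or Quad peak within 5 kb and the members near genes of the muscle and cell type lists described further on. Each is the plus strand of mm10 (RefSeq GRCm38.p6) over the stretch shared by the Sol and the Dia peak, without annotated exons. Capitals mark matches, on either strand, to the motifs of NFAT (TGGAAA), TEAD factors (GGAATG), forkhead (FOX) factors (TGTTTAC) and the myogenic E-box (CAGCTG), among 15 motifs searched.
Fos promoter, chr12:85473740-85473889: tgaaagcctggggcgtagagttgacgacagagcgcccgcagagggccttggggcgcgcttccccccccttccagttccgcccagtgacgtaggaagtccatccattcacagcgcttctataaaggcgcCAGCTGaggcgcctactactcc
Idh2 intron 1, chr7:80114084-80114187: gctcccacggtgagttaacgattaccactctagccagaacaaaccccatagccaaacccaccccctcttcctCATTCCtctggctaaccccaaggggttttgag
Idh2 upstream, chr7:80130558-80130587: tgagcagaaatcccaacaacgctgagactt
Rcsd1 intron 1, chr1:165684940-165685022: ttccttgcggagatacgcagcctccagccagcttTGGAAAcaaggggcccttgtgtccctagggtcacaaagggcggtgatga
Actn1 intron 1, chr12:80216505-80216711: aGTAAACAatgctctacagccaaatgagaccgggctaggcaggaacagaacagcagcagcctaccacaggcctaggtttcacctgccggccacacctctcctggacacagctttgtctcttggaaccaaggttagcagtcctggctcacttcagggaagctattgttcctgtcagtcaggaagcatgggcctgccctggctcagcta
Wfs1 nearest, in intron 5 of Ppp2r2c, chr5:36936684-36936827: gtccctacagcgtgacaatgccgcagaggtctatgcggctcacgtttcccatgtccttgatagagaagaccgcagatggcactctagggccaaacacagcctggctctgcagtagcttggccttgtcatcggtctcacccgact
Mgrn1 intron 1, chr16:4896711-4896823: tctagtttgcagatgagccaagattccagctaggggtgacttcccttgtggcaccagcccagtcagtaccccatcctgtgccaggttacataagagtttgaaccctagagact
Fa2h intron 1, chr8:111366907-111367093: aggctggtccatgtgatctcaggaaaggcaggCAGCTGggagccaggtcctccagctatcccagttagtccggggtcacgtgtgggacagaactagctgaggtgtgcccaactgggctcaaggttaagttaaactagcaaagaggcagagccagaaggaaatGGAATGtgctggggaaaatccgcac
Foxd3 downstream, chr4:99684095-99684301: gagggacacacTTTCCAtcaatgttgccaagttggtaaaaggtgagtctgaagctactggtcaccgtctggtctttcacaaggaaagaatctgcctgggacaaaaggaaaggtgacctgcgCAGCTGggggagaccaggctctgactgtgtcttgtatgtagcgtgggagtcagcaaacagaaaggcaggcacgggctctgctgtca
Rcan2 upstream, chr17:43795002-43795147: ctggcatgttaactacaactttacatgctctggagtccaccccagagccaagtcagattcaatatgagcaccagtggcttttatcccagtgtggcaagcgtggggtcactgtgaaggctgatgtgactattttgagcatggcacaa

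The Fos promoter stretch held an E-box at bases 129 to 134, counted from its 5′ end. An NFAT match lay at bases 35 to 40 of the Rcsd1 intron, and the Foxd3 stretch held an NFAT match and an E-box. The Fa2h intron held an E-box and a TEAD match, the Idh2 intron a TEAD match and the Actn1 intron a FOX match. The upstream Idh2 stretch, 30 bases long, and those at Wfs1, Mgrn1 and Rcan2 had no match to the motifs searched, which says only that these letters are not in these windows.

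Most members were weak peaks in both muscles. Scores are the authors' tag counts scaled by library size, and the percentile places a score within its own list. The Sol score had a median of 5.64 (range 3.35 to 21.1), which is percentile 32.7 of the Sol list (quartiles 15.3 and 52.3). In Dia the median score was 5.34 (3.73 to 22.2), at percentile 22.5 (quartiles 12.3 and 41.2). These medians correspond to 59 tags in Sol and 53 in Dia, inferred from the score steps. Only 78 members (12%) lay above percentile 50 in both lists, while 443 (68.3%) lay at or below it in both. The Sol percentile exceeded the Dia percentile in 421 members (64.9%). Across the 649 members Spearman's rho of both scores was 0.601, a description over regions of the same 2 libraries that all passed a threshold in each.

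**Figure D1:**
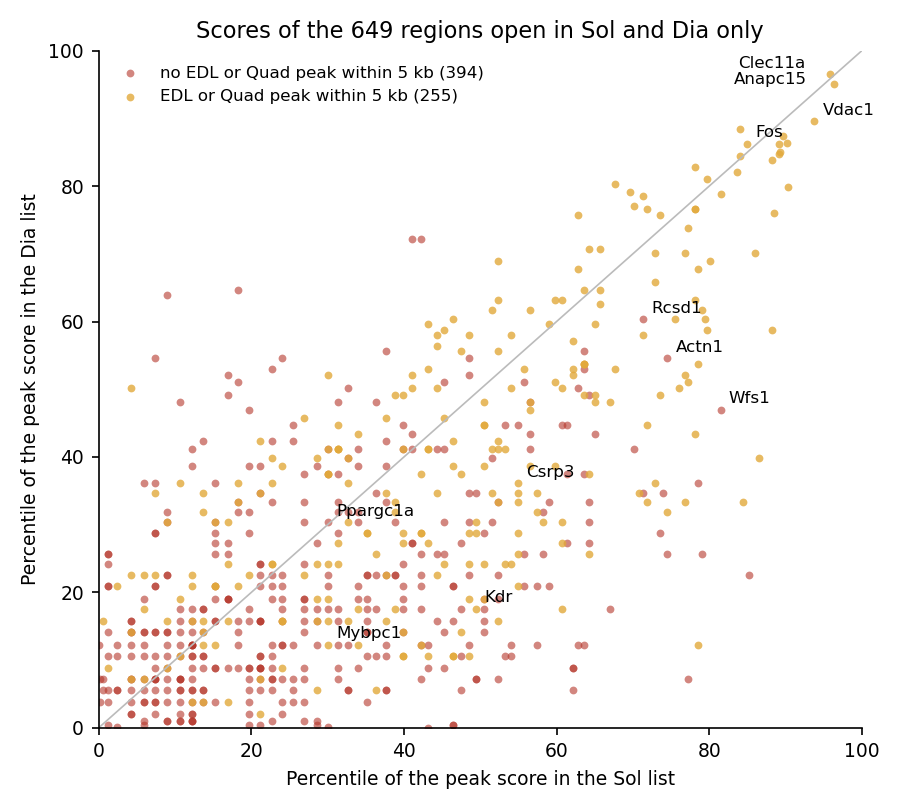
Each point is 1 of the 649 members, with the percentile of its peak score in the Sol list on the x axis and in the Dia list on the y axis; the line marks equal percentiles. Members with an EDL or Quad peak within 5 kb (255, yellow) fill the upper right corner, while those without (394, red) crowd the lower left.

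The strongest members were not isolated from peaks of the fast muscles. By mean percentile the first 10 were nearest to Clec11a (a secreted growth factor), Anapc15 (a subunit of the anaphase-promoting complex), Vdac1 (a channel of the outer mitochondrial membrane), Mfsd11, Ptpn2 (a tyrosine phosphatase), Usp48 (a deubiquitinase), Nop53 (a ribosome biogenesis factor), Cbll1 (a ubiquitin ligase), Dleu2 (a long noncoding RNA) and Nfe2l2 (a regulator of antioxidant genes). The Mfsd11 member was annotated to the promoter of Srsf2 and the Nop53 member to the transcript end of Ehd2. All 10 stood beside a region open in EDL and Quad only. At Clec11a, in the third intron of the gene, the Sol peak reached a score of 20.5 (percentile 95.8) and the Dia peak 22.2 (96.5), while EDL and Quad peaks centered 278 bp and 255 bp from the Sol peak stood at percentiles 98.3 and 97.6 of their lists. At Anapc15 the Sol score was 21.1 and the Dia score 20.3, and the neighbors, 367 bp and 395 bp from the Sol center, were at percentiles 97.4 in EDL and 95.5 in Quad. The Vdac1 member, in the 5′ UTR, scored 18.1 in Sol and 16.1 in Dia and touched an EDL peak without overlapping it. Across the 10 members, the neighboring peaks lay between percentiles 80.9 and 98.3, centered 208 bp to 457 bp from the Sol peak, whereas the Sol and Dia centers were 1 bp to 194 bp apart. At these genes the fast muscles thus had a strong peak as well, at a shifted position.

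Over all members, 139 (21.4%, 95% Wilson interval 18.4 to 24.7) had an EDL or Quad peak within 500 bp, and 68 of these 139 (48.9%) stood beside a region open in EDL and Quad only. Of the mirror class, 9.06% (8.24 to 9.95) had a Sol or Dia peak within 500 bp. Members thus exceeded the mirror class by 12.4 percentage points (9.24 to 15.8 by Newcombe's method). Intervals cover counting error only. The EDL and Quad lists together hold more peaks than the Sol and Dia lists, which bears on this difference and was not adjusted for. Among the 78 members above percentile 50 in both lists, 53 (67.9%) had such a neighbor. The median gap from a member to the nearest EDL or Quad peak was 7288 bp (quartiles 1014 and 18895).

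**Figure D2:**
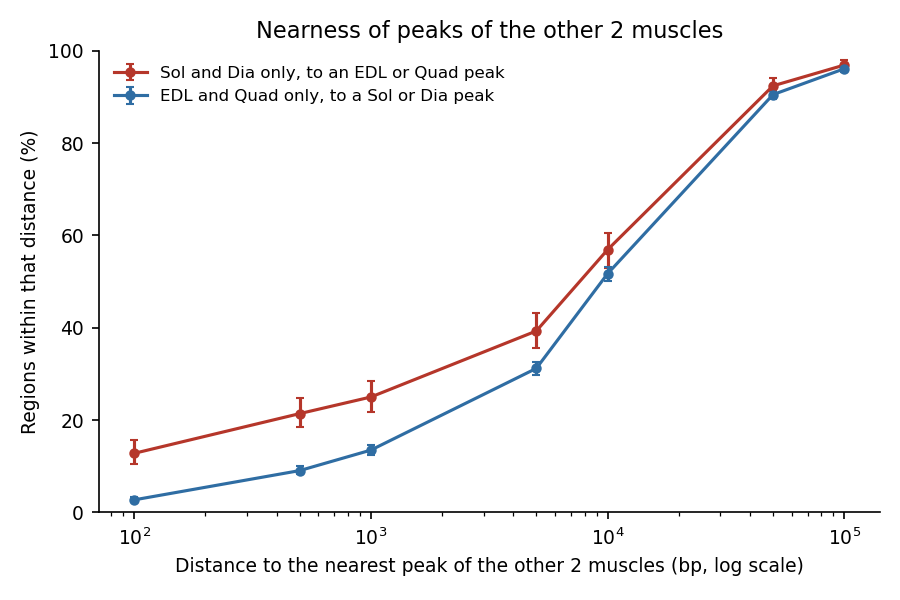
The share of regions (y axis, percent) with a peak of the other 2 muscles within a given distance (x axis, bp, log scale), for regions open in Sol and Dia only (red) and in EDL and Quad only (blue), with 95% Wilson intervals. The curves are 12.8% against 2.72% at 100 bp and come together at 50000 bp, at 92.4% and 90.5%.

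The 394 members (60.7%) with no EDL or Quad peak within 5 kb are isolated by this measure. By mean percentile the highest of them was in the first intron of Rcsd1, with 103 tags in Sol (score 9.84) and 86 in Dia (8.66). Rcsd1 encodes a protein that binds the actin-capping protein CapZ. Actn1, an actin cross-linker of the alpha-actinin family, followed with 109 tags in Sol (10.4) and 79 in Dia (7.96), and its nearest EDL or Quad peak was 13379 bp away. A member with Wfs1, an endoplasmic reticulum membrane protein, as its nearest gene scored 12.0 in Sol and 7.15 in Dia and lay 42230 bp from the nearest Quad peak. The member in Mgrn1, a ubiquitin ligase gene, scored 8.70 and 8.06. Fa2h, an enzyme that hydroxylates fatty acids of myelin lipids, had a member at 8.70 and 7.76, with a Quad peak no nearer than 23416 bp. All 5 were in introns, and the highest percentile any of them reached was 81.5, in Sol.

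The rule's edges were close. Besides Vdac1, a member at Mis18a touched a Quad peak, and members at Utrn and Mecom were 1 bp from a Quad and an EDL peak. The Sol and Dia peaks themselves shared as little as 1 bp, at Sc5d, with a median overlap of 177 bp. On the other side, 1516 regions with Sol and Dia peaks were kept out by a peak of a single fast muscle. In 7 of them the overlap was under 20 bp, and it was 2 bp at Ppm1h and at Ubxn2a.

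Members lay mainly away from gene starts. Introns held 283 members (43.6%, interval 39.8 to 47.4), intergenic DNA 254 (39.1%, 35.5 to 42.9) and promoters, defined as 1 kb upstream to 100 bp downstream of a transcription start site (TSS), 81 (12.5%, 10.2 to 15.2). Over all 53883 regions, introns held 38.9%, intergenic DNA 34.2% and promoters 21.3%. Most of all regions thus also lay outside promoters, and the promoter share of members was below that of all regions. In regions open in all 4 muscles the promoter share was 52.2%, and in the mirror class it was 6.87%. The promoter share of the members was 5.61 percentage points above that of the mirror class (3.15 to 8.46), and their intron share 6.97 points below it (difference -11 to -2.85). Within members, the first intron held 105 and later introns 178, and the deficit against the mirror class was in later introns (difference -6.36 points, -9.95 to -2.54). The intergenic share did not differ beyond counting error (difference 2.63 points, -1.32 to 6.69). The median distance to the TSS was 20705 bp in members, 22193 bp in the mirror class and 16063 bp over all regions.

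**Figure D3:**
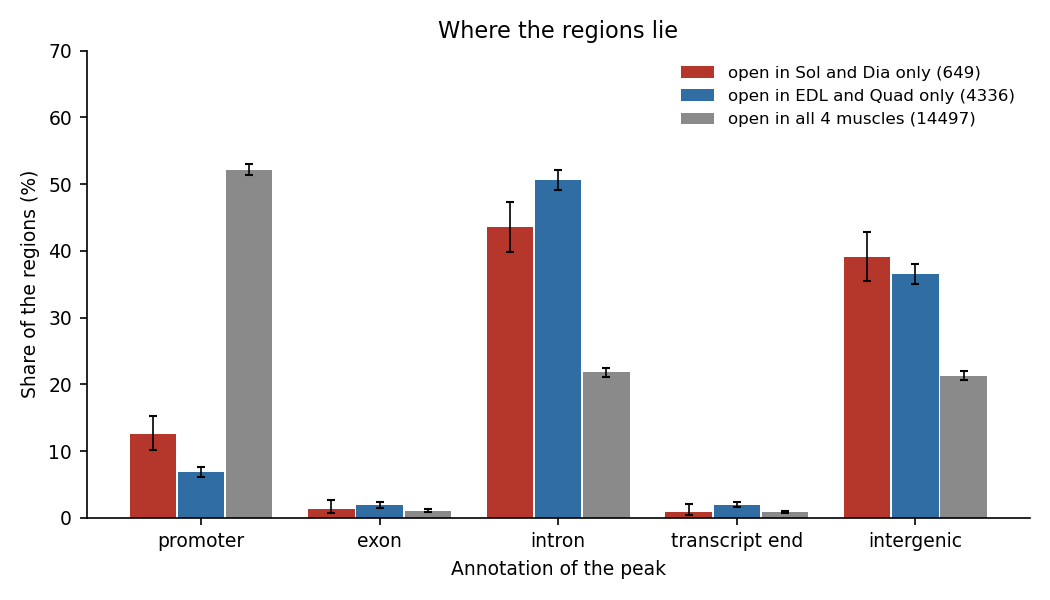
Bars give the share of regions (y axis, percent) in each annotation (x axis) for regions open in Sol and Dia only (red), EDL and Quad only (blue) and all 4 muscles (gray), with 95% Wilson intervals; UTR and noncoding annotations are not drawn. Members stand at 12.5% in promoters, between 6.87% and 52.2% for the other classes.

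The excess of promoters over the mirror class moved with neighboring peaks. Promoter members had a median gap of 197 bp to an EDL or Quad peak, against 8135 bp for the other members. With regions that had a peak of the other 2 muscles within 500 bp left out of both classes, an alternative chosen after seeing the data, the promoter share of the members was 7.06% and the difference 1.71 points (-0.35 to 4.35). At 5 kb the member share was 7.11%, against 4.39% in the mirror class, and the difference was 2.72 points (0.428 to 5.76). Promoter members also scored higher, with a median Sol percentile of 43.2 against 31.3 for the rest. Within quartiles of the Sol list, members were less often promoters than other regions with a Sol peak, except in the lowest. There 10.5% (7.35 to 14.9) of members were promoters, against 8.01% (7.38 to 8.69). From percentile 25 to 50 the shares were 9.35% (6.13 to 14) and 18.7% (17.8 to 19.6). These other regions include those open in all 4 muscles, of which 52.2% were promoters, so the comparison is not matched for class. Above percentile 75 of the Sol list, 14 of 45 members (31.1%, 19.5 to 45.7) were promoters, against 65.4% (64.3 to 66.5) of the other regions with a Sol peak.

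The promoter members with the highest mean percentile were nearest to Mfsd11 (in the annotated promoter of Srsf2), Ptpn2, Usp48, Cbll1 and Fos. At Fos, an immediate early gene whose product is part of AP-1, the member lay at -47 bp from the TSS with 137 tags in Sol (score 13.1) and 144 in Dia (14.5). An EDL peak began 40 bp away and a Quad peak 66 bp away. The members at the starts of Emcn, an endothelial surface protein, and Meis2, a homeodomain factor, had no such neighbor. At Emcn the scores were 4.11 in Sol and 5.34 in Dia with the nearest Quad peak 18293 bp away, and at Meis2 they were 4.68 and 9.27 with a Quad peak 20260 bp away.

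The members fell nearest to 614 genes, 582 of which had 1 member and 30 had 2. Pik3r1, a regulatory subunit of the PI3 kinase that acts in insulin signaling, had 4 members, all intergenic and upstream, at -198937 bp to -296850 bp from its TSS. Their Sol scores were 6.12, 5.26, 5.07 and 4.30, and their Dia scores 5.34, 4.23, 4.13 and 4.13, near the lower end of the Dia list. Pik3r1 was nearest to 29 regions in all, of which 1 was open in EDL and Quad only. Mir3961, a microRNA gene, had 3 members, the nearest of them at -194751 bp, the strongest with scores of 9.84 in Sol and 6.14 in Dia. Of the 614 genes, 248 (40.4%) also had a region open in EDL and Quad only, against 3264 of the 16867 genes with any region (19.4%), and the number of regions per gene was not adjusted for. Among the 248 genes, and chosen among ties by the higher percentile, Map3k5 (a stress-activated kinase), Ehd2 (a protein of caveolae), Asb15 (an ankyrin repeat protein of muscle) and Gse1 had 2 members each. The stronger Map3k5 member was at its promoter, with scores of 11.6 and 12.7 and a Quad peak 34 bp away, and the weaker in an intron, with 5.35 and 5.64 and the nearest EDL peak 33200 bp away.

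Genes of slow contraction and calcium handling were nearest to 86 regions, of which 3 (3.49%, 1.19 to 9.76) were members. Over all regions the share of members was 1.20%, inside that interval. The member at Csrp3, the muscle LIM protein of the Z-disc, was in the first intron with scores of 7.65 in Sol and 6.24 in Dia. Csrp3 had 4 regions, and 2 of the others were open in Sol alone. Myh7b, a slow-type myosin heavy chain gene, had a member in exon 4 (6.69 and 4.53) and a further region open in Sol alone, and no EDL or Quad peak. The member upstream of Mybpc1, which encodes slow myosin-binding protein C, scored 5.45 and 4.73 and had a Quad peak 604 bp away. Of the fast contractile genes, 1 of 71 regions was a member, at Myl1, a fast myosin light chain (4.30 and 4.83), whereas 15 of the 71 (21.1%, 13.2 to 32) were open in EDL and Quad only, above the 8.05% of all regions.

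Genes of oxidative phosphorylation and the TCA cycle had 5 of 231 regions in the class (2.16%, 0.928 to 4.97), near the 1.20% of all regions. Both members with high scores were at Idh2, the mitochondrial isocitrate dehydrogenase. The intron 1 member scored 13.5 in Sol and 10.2 in Dia, and the upstream member, at -15311 bp, scored 14.4 and 8.46, each with a Quad peak within 1 kb (284 bp and 713 bp). Members at Ndufb3 (8.22 and 6.45) and Ndufv3 (5.07 and 5.34), both of complex I, and at Cycs, cytochrome c, were intergenic. The Ndufb3 member had an EDL peak 378 bp away. Of fatty acid genes, 3 of 124 regions (2.42%, 0.826 to 6.87) were members, an interval that also holds 1.20%. They were near Plin2, a lipid droplet protein (5.54 and 6.65), in intron 2 of Acaa2, a beta-oxidation thiolase (5.45 and 5.24), and at the 5′ UTR of Cd36, a fatty acid transporter (4.40 and 5.94). Genes of glycolysis and glycogen had 0 members in 123 regions, which allows a share of up to 2.44%. A count of 0 is thus not distinguishable from the 1.20% of all regions. Of the 123, 20 (16.3%, 10.8 to 23.8) were open in EDL and Quad only, above the 8.05% of all regions.

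Shares near regulators of the oxidative program also had intervals that held the 1.20% of all regions. PGC-1, ERR, PPAR, thyroid and retinoid receptor genes had 2 members of 149 regions (1.34%, 0.369 to 4.76). The member nearest to Ppargc1a, which encodes PGC1α, was intergenic at 113849 bp from its TSS with scores of 5.45 and 5.84, and that in an intron of Thrb, a thyroid hormone receptor, scored 4.11 and 4.03. Calcineurin, NFAT, MEF2 and cofactor genes had 6 of 252 (2.38%, 1.1 to 5.1). The strongest was at -2020 bp from Nfatc1, an NFAT factor itself, at 11.3 in Sol and 9.77 in Dia, with an EDL peak 137 bp away. At Rcan2, a calcineurin inhibitor, the member at -6247 bp scored 7.65 and 6.95 and had its nearest Quad peak 6005 bp away. The other members were near Vgll2 (6.69 and 5.84) and Vgll4 (6.02 and 6.14), cofactors of TEAD proteins, and in introns of Hdac4 (5.16 and 6.75) and Hdac9 (5.45 and 4.94), class IIa deacetylases that bind MEF2. The Hdac9 member had an EDL peak 121 bp away.

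Members occurred near regulators of the fast program as well. Of the 165 regions nearest to these genes, 3 (1.82%, 0.62 to 5.21) were members, near the 1.20% of all regions. EDL and Quad alone shared 22 of them (13.3%, 8.97 to 19.4), above the 8.05% of all regions. With list genes assigned by any start within 50 kb, the count was 8 of 81 (9.88%). In lists shortened to 20000 peaks it was 11 of 85 (12.9%), against 5.25% of all regions there. Eya4 (6.31 and 5.64) and Tbx15 (5.54 and 5.64) each had 1 member. Tbx15 had 18 regions, 4 of them open in EDL and Quad only, and Eya4 had 21 with 4. Myogenic and Pax factors had 0 of 35, which allows a share of up to 8.57%. AP-1 and immediate early genes had 2 of 110 (1.82%, 0.5 to 6.39), at Fos and Egr3, and Hox and limb position genes 1 of 66 (1.52%, 0.268 to 8.1), at Meis2.

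Marker genes of the other cells in muscle were checked in the same way. Schwann cell markers had 2 members of 15 regions (13.3%, 3.74 to 37.9), against 1.20% of all regions. This share rests on 2 regions, and the intervals of the 18 lists were not adjusted for their number. Of the 15 regions, 1 (6.67%) was open in EDL and Quad only. With list genes assigned by any start within 50 kb, each class held 2 of 43 regions (4.65%). The 2 members of the 15 regions were near Foxd3, a neural crest factor (8.89 in Sol and 6.85 in Dia), and in an intron of Mbp, myelin basic protein (5.54 and 4.94). Their nearest EDL or Quad peaks were 31094 bp and 52921 bp away. Mbp also had a region open in EDL and Quad only. Endothelial markers had 2 of 108 (1.85%, 0.509 to 6.5), an interval that holds the 1.20% of all regions. They were near Kdr, a VEGF receptor (7.07 and 5.04, with an EDL peak 131 bp away), and at Emcn. Fibroblast and tendon markers had 0 of 70 (a share of up to 4.29%) and smooth muscle and pericyte markers 0 of 28 (up to 10.7%). Leukocyte markers had 0 of 17 (up to 17.6%), mesothelial markers 0 of 15 (up to 20%) and adipocyte markers 0 of 9 (up to 33.3%). None of these counts of 0 is distinguishable from 1.20%. The part of these cell types in the class was not tested.

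**Figure D4:**
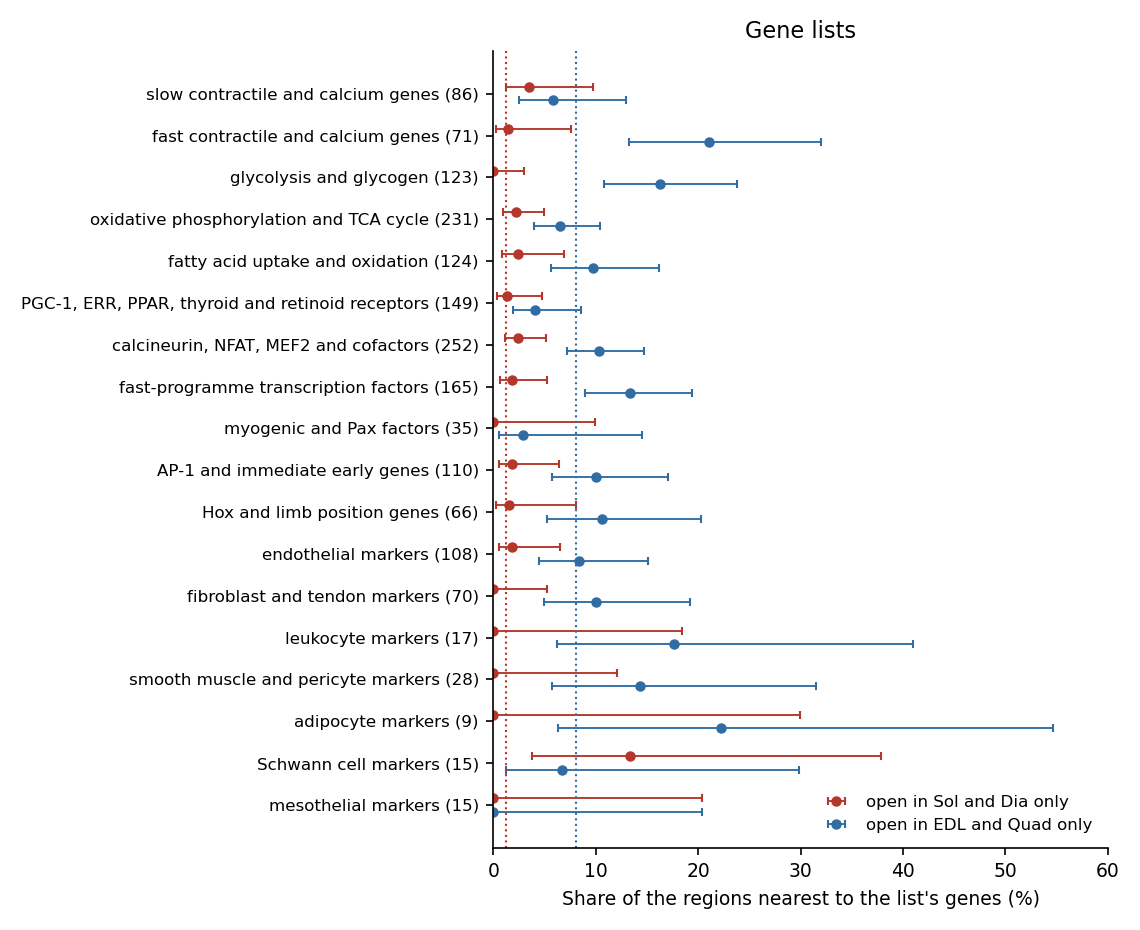
For each of 18 gene lists (number of nearest regions in brackets), points give the share of regions (x axis, percent) open in Sol and Dia only (red) and in EDL and Quad only (blue), with 95% Wilson intervals; dotted lines mark these shares over all regions, 1.20% and 8.05%. The fast contractile list reaches 21.1% in blue and 1.41% in red.

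A shorter Quad or EDL list would leave more regions to Sol and Dia, and the reverse holds for a longer one. When lists were shortened to their 20000 best peaks, 1108 of 32066 regions (3.46%) were open in Sol and Dia only and 1684 (5.25%) in EDL and Quad only. Of the 649 members, 324 (49.9%) were also in that class, and they made up 29.2% of its 1108 regions. Of the 1108, 464 (41.9%) lay in regions that held a peak of all 4 full lists, so EDL and Quad had a lower-ranked peak there. In this setting the slow contractile list had 2 of 70 regions in the class (2.86%), without Mybpc1. The fast contractile list had 2 of 65 (3.08%), Pvalb and Mylk4, in place of Myl1. Both shares were below the 3.46% of all regions. Genes of oxidative phosphorylation and the TCA cycle (4 of 169, 2.37%) and fatty acid genes (3 of 89, 3.37%) were below it too. So were PGC-1, ERR, PPAR, thyroid and retinoid receptor genes (3 of 105, 2.86%) and glycolysis and glycogen genes (0 of 99). In the full lists the oxidative, fatty acid and receptor shares had been above the 1.20% of all regions, with intervals that held it. Above 3.46% were calcineurin and MEF2 genes (8 of 165, 4.85%), fast-program regulators (6 of 85, 7.06%) and endothelial markers (5 of 68, 7.35%). Smooth muscle, adipocyte and Schwann cell markers were also above it, each on 1 or 2 regions. These shares are given without intervals. Ppargc1a lost its member and gained its promoter, where Sol and Dia peaks stood at percentiles 50.5 and 39.8, and a region at -28082 bp. Thrb, Acaa2, Ndufv3 and Cycs left the class. Acsl1, a fatty acid activating enzyme, gained its promoter (72.9 and 45.8). Sox6, a repressor of slow fiber genes, gained 2 regions. Members at Csrp3, Myh7b, Idh2, Ndufb3, Plin2, Rcan2, Nfatc1, Vgll2 and Vgll4 were in the class in both settings. So were those at Eya4, a regulator of the fast program, and at Fos, Kdr, Foxd3 and Mbp.

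Motif matches were counted in the central 200 bp of each region, on both strands, with overlaps between motifs allowed. Over all 53857 regions on assembled chromosomes the NFAT letters occurred in 18.1%, those of the E-box in 20.4% and the MEF2 motif in 3.90%. NFAT matches were found in 147 members (22.7%, 19.6 to 26) and in 18.7% of the mirror class, a difference of 3.97 points (0.693 to 7.53). Outside promoters the difference was 5.35 points (1.77 to 9.24). The interval of the difference over all members included 0 at 50% reciprocal overlap (1.98 points, -0.831 to 5.01) and with 200 bp windows at each peak center (2.65 points, -0.542 to 6.14), and the difference turned to -0.591 points (-7.39 to 9.26) among regions in the upper 50% of both lists. E-box matches went the other way, with 19.4% (16.6 to 22.6) in members and 24.6% in the mirror class (difference -5.15 points, -8.29 to -1.69). The MEF2 motif was present in 41 members (6.32%, 4.69 to 8.46) and 6.00% of the mirror class, which did not differ beyond counting error (difference 0.321 points, -1.47 to 2.56). In regions open in all 4 muscles it was present in 2.98%. Outside promoters these shares were 7.22% in members and 5.56% in regions open in all 4 muscles, a difference of 1.66 points (-0.282 to 4.14). ERR matches (TCAAGGTCA) were rare, in 6 members (0.924%), 0.415% of the mirror class and 0.403% of all regions, a difference from the mirror class of 0.509 points (-0.0454 to 1.6).

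**Figure D5:**
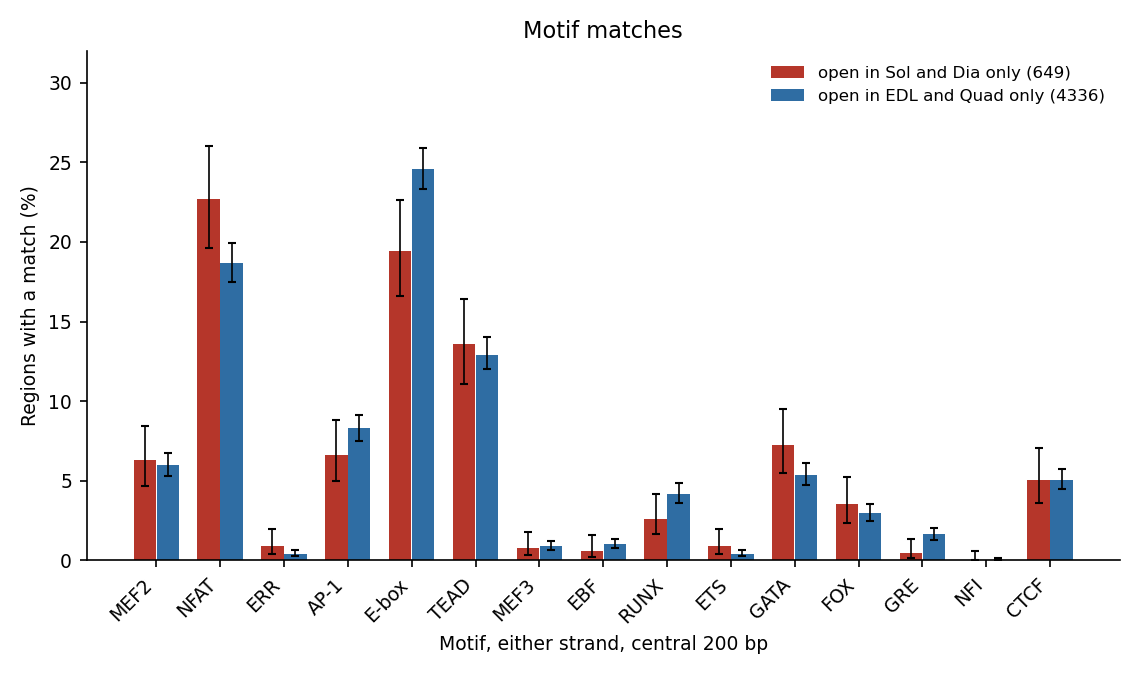
Bars give the share of regions with a match (y axis, percent) for each of 15 motifs (x axis) in regions open in Sol and Dia only (red) and in EDL and Quad only (blue), with 95% Wilson intervals. NFAT stands at 22.7% against 18.7% and the E-box at 19.4% against 24.6%.

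Among the other motifs, the glucocorticoid response element matched 3 members (0.462%) and 1.64% of the mirror class (difference -1.18 points, -1.7 to -0.225), against 1.07% of all regions. Over all members, the remaining intervals against the mirror class included 0. Outside promoters the GATA interval excluded it as well (difference 2.55 points, 0.464 to 5.15). GATA letters (AGATAA) matched 7.24% of the members and 5.83% of all regions, RUNX (TGTGGTT) 2.62% and 3.77%, AP-1 (TGACTCA) 6.63% and 7.52%, TEAD 13.6% and 12.1%, FOX 3.54% and 2.91%, ETS (CCGGAAGT) 0.924% and 1.99%, MEF3 (TCAGGTTTC) 0.77% and 0.568%, EBF 0.616% and 1%, and CTCF 5.08% and 4.80%. NFI matched 0 members, which allows a share of up to 0.462%. With 15 motifs against 2 classes, over all regions and outside promoters, 60 intervals were compared without adjustment. Mean GC content was 53.2% ± 8.14 (SD over 649 regions) in members, 52.1% ± 6.8 in the mirror class and 59.9% ± 8.93 in regions open in all 4 muscles. A match is a run of letters and was not tested for binding.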

How the data were processed

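Open chromatin was measured by ATAC-seq in EDL, Quad, Sol and Dia, 1 pooled library each. Read pairs were aligned to mm10 with Bowtie2, and HOMER called peaks of fixed width in each library separately and annotated each to the nearest TSS. The Tn5 offset and any removal of repeat-derived reads are not given in the sources used here. The score deposited by the authors is a tag count scaled by library size. A further column, a fraction deposited by the authors for each peak, was not analysed. A tag was worth 0.0956 (Sol) to 0.128 (Quad) score units, and if scores are scaled to 10 M tags (M, mega) the libraries held 78.1 M (Quad) to 105 M (Sol).

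Peaks were merged at 1 bp overlap. Gene, annotation and distance of a member are those of its Sol peak. Coordinates are 1-based, and all 53857 regions on assembled chromosomes ended inside GRCm38.p6. Gene starts and exons were from GENCODE vM21 and sequences from RefSeq. Shares carry 95% Wilson intervals and differences Newcombe intervals, with a count of 0 limited by 3 counts. Motifs were searched in 200 bp windows. Scripts used Python 3.11.15, pandas 2.3.3, numpy 2.4.6 and scipy 1.17.1 and were tested on simulated peaks.

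The members, the 18 gene lists and the motifs were chosen with earlier results of these data known. Named genes are the 10 members with the highest mean percentile of the Sol and Dia scores, the 5 highest without an EDL or Quad peak within 5 kb, the 5 highest at promoters, genes with 3 or more members, members of the lists (1 of which is not reported here), and the 5 genes with most members that also hold a region open in EDL and Quad only, with ties broken by the highest mean percentile. Printed sequences belong to the 10 members with the highest mean percentile among the 5 without such a peak and those of the lists, leaving out chromosome 18. Alternatives were overlap, list length, score, window, chromosome and annotation choices.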

Additional observations from a re-analysis of the deposited data

How the results depend on the processing

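No paired analysis was possible because each muscle had a single library here. Of 84 alternative values for 9 results, 55 were counted as the same. For this, a share or median had to stay within the interval and a count within 1.5 times. A difference had to keep its side of 0 and an interval that excluded 0. All 649 members lie on autosomes or X, and restricting to these chromosomes left each of the 9 results at its main value. Those values are among the 55 and say nothing about stability. Leaving out regions with a peak of the other 2 lists within 500 bp or 5 kb, assigning list genes by any start within 50 kb, and applying the alternatives to differences were chosen after seeing the data. Unless a construction shows it, the cause of a change was not tested.

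With lists of 20000 peaks the class held 1108 regions, with a promoter share of 17.7% and a median TSS distance of 16608 bp. Members in the upper 50% of both lists numbered 78, with promoter and intergenic shares of 34.6% and 11.5%, a median distance of 1216 bp, a slow-list share of 0%, a MEF2 share of 1.28% and an NFAT difference that reversed to -0.591 points (-7.39 to 9.26). At 50% reciprocal overlap the promoter share was 22.2%, the intergenic share 35%, the median distance 14795 bp and the NFAT difference 1.98 points (-0.831 to 5.01). With peaks within 500 bp counted as shared, the promoter share was 7.08% and 1.59 points above the mirror class (-0.422 to 4.17), the median distance was 25115 bp and the NFAT difference 3.5 points (-0.0216 to 7.38). The 200 bp windows gave an NFAT difference of 2.65 points (-0.542 to 6.14). Without regions that had a neighbor within 500 bp, the promoter share was 7.06%, the difference 1.71 points and the median distance 25080 bp. At 5 kb, 394 members remained, with promoter and intergenic shares of 7.11% and 45.7%, a slow-list share of 1.16% and an NFAT difference of 3.65 points (-0.467 to 8.24). The mirror class then had promoter and intergenic shares of 4.39% and 37.3%. The E-box difference stayed below 0 in every alternative, although its interval included 0 in the upper 50% of both lists and over whole regions.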

Other observations

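Some further members were chosen after their values were seen. Myom3, a gene of the sarcomeric M-band, was nearest to 7 regions, of which 2 were members. The member in its first intron scored 11.5 in Sol (percentile 79.4) and 8.66 in Dia (60.4), with the nearest Quad peak 1177 bp away and the nearest EDL peak 11384 bp away. The other, in intron 5 of the neighboring gene Il22ra1, scored 6.59 and 6.65 and had its nearest Quad peak 16625 bp away. Plet1os, a noncoding RNA gene, was nearest to 2 regions and both were members, at scores of 4.87 and 4.49 in Sol and 5.44 and 5.74 in Dia.

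Of the 614 nearest genes, 36 (5.86%) had members as their regions and no others. Members were found on all autosomes, from 13 of 1947 regions on chromosome 16 (0.668%) to 35 of 2039 on chromosome 14 (1.72%), and 6 of 765 were on X. Another member lay within 50 kb of 60 members (9.24%).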
